A study of Oryctolagus cuniculus with 2 samples.

Results

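Cluster 14 is the smaller of the 2 clusters that the authors labelled as retinal ganglion cells in a single-nucleus RNA-seq survey of rabbit retina. Its members were chosen by the deposited cluster number and cell type, both of which the authors derived from the counts of these nuclei, and they were 107 of 6542 nuclei, or 1.64%. The other ganglion-labelled cluster, number 7, held 217 nuclei. Because the authors drew the clusters from these same counts, every difference between cluster 14 and another cluster is a description and carries no test.

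Retinal ganglion cells are the output neurons of the retina, and their axons form the optic nerve. They are large cells with much cytoplasm and many mitochondria. A nucleus preparation is meant to leave cytoplasm behind, so a nucleus yields mainly nuclear RNA, which is rich in unspliced and long noncoding transcripts. Transcripts of the mitochondrial genome are made outside the nucleus, and any found in a nucleus library generally came from mitochondria that stayed with the nucleus or from RNA free in the droplet.

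The 2 libraries came from wild-type rabbits and from rabbits with a knockout of CLRN1, a gene of hereditary deaf-blindness in people. All animals were 10 months old. Each gave a 5 mm punch of the visual streak, taken 2 to 3 mm below the medullary rays (the bands of myelinated nerve fibres), and nuclei of 3 animals per genotype were mixed into 1 droplet library that read the 3' ends of polyadenylated RNA. The labels mention that nuclei were traced back to animals by their genetic variation, but that assignment was not used here. Genotype, animals and library can therefore not be told apart in these values, and no difference between the genotypes has a replicate check.

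The wild-type library held 3484 nuclei with 6916018 UMIs (unique molecular identifiers, each counted as 1 captured RNA molecule) and a median of 1176 UMIs per nucleus. The knockout library held 3058 nuclei with 8233524 UMIs and a median of 1553. No nucleus had fewer than 499 UMIs. In all, 5 cell barcodes occurred in both libraries, and none of them belonged to cluster 14. The matrix rows carry numbers and no gene names, so no gene is named below, CLRN1 could not be looked up, and the ganglion label could not be set against named marker genes. It was set instead against the authors' own marker lists, whose rows could be recovered. The authors' labels may rest on these same lists, so the list levels and scores describe the label and are no independent check of it. The intervals are 95% intervals that cover counting error only.

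Cluster 14 was more frequent in the knockout library. It held 26 of 3484 wild-type nuclei, or 0.746% (exact Clopper-Pearson interval 0.488 to 1.09), and 81 of 3058 knockout nuclei, or 2.65% (2.11 to 3.28). The knockout share was 3.55 times the wild-type share (2.26 to 5.75). With rods left out of the denominator they were 2.09% and 8.11%, and among ganglion-labelled nuclei 17.6% and 46.0%. Cluster 7 took up 3.50% of the wild-type library and 3.11% of the knockout library, so the ganglion-labelled total differed through cluster 14.

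Depth sat close to the lower edge of the deposited nuclei. The members had 500 to 2929 UMIs, with a median of 704 over both libraries, 648 in the wild-type and 736 in the knockout library. In the wild-type library 34.6% of the members had under 600 UMIs, against 12.3% of all nuclei, and in the knockout library 28.4% against 8.93%. Of 24 members with 1000 or more UMIs, 1 was wild-type. Among nuclei that deep, cluster 14 made up 0.050% of the wild-type library (0.00127 to 0.278) and 1.13% of the knockout library (0.720 to 1.70). The knockout library was the deeper one, and how much of the difference in shares a lower limit on UMIs sets was not tested.

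**Figure D1:**
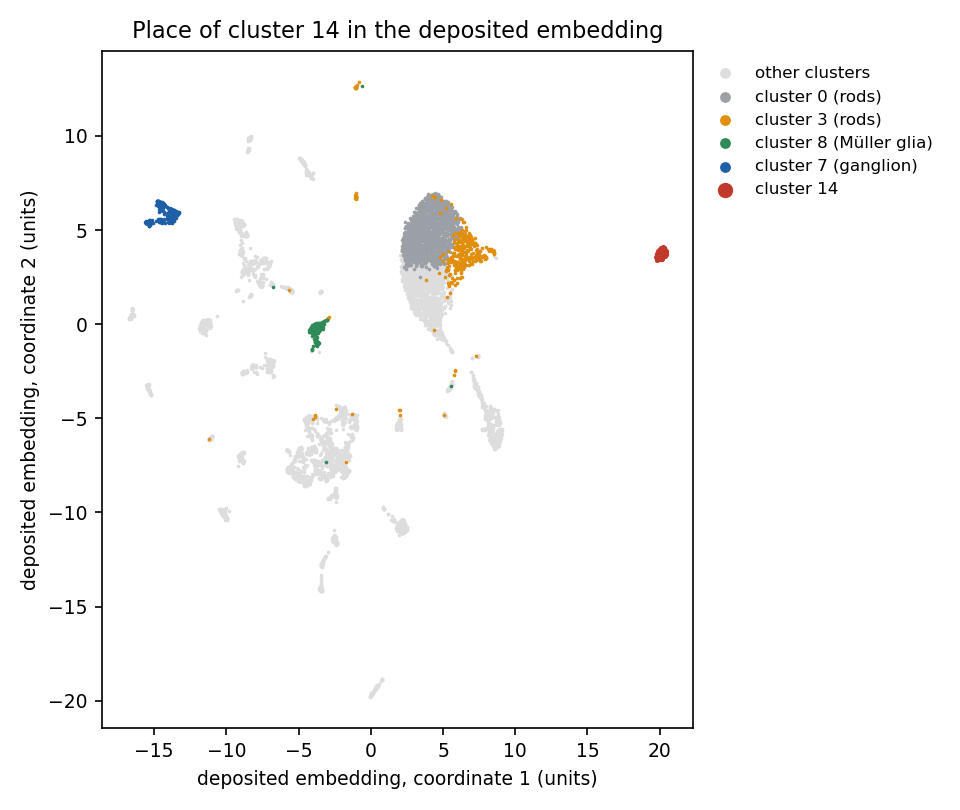
Each point is a nucleus at its deposited embedding coordinates (horizontal and vertical axes in embedding units), coloured by the authors' cluster. The 107 nuclei of cluster 14 form 1 compact island at the right edge, far from cluster 7, which lies at the left edge.

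In the deposited embedding the members formed a single island of 0.744 by 0.694 units, on a map of 37.2 by 32.7 units. The island stayed in 1 piece when nuclei were joined at distances of 0.2, 0.5 or 1 unit. Only 2 other nuclei lay within 1 unit of it, both from the knockout library and both in rod cluster 3. The next nucleus was 11.1 units away and belonged to cone cluster 4. The nearest nucleus of cluster 3, those 2 aside, was 11.2 units away, of rod cluster 0 13.5, of Müller glia cluster 8 15.7, and of ganglion cluster 7 33.1 units away. Among the 30 nearest outside nuclei of a member, 93.3% on average were in cluster 3 and 6.67% in cluster 4. The island is small and isolated, so its members share nearly the same outside neighbours, the 2 nuclei on the island among them. The percentages thus describe 1 set of nuclei and not many separate ones. Of the 4 compared clusters, number 7 was the most distant despite the shared label, although long distances in such maps are only loosely tied to differences in expression.

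The mitochondrial share set cluster 14 apart from the rest of the data. The deposited percentage of UMIs from mitochondrial genes ran from 0% to 14.1% over the members, with a median of 4.58% (interval of the median 3.44 to 5.66). In the other 25 clusters the median lay between 0.0579% and 0.970%, the highest being cluster 3. In cluster 14, 50 of 107 members were above 5%, against 42 of the 6435 other nuclei, and 37 of those 42 were in cluster 3. Not every member was rich in mitochondrial RNA: 10 members, 2 wild-type and 8 knockout, were at 1% or below. Those 10 had a median ganglion score of 1.04, against 1.08 in the 97 members above 1%.

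The contrast was also present at like depth. Among nuclei of 500 to 1000 UMIs the median was 4.47% in 83 members of cluster 14, 1.04% in 246 nuclei of cluster 3, 0.133% in 29 of cluster 8 and 0.126% in 1390 of cluster 0. Cluster 7 had no nucleus in that range.

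**Figure D2:**
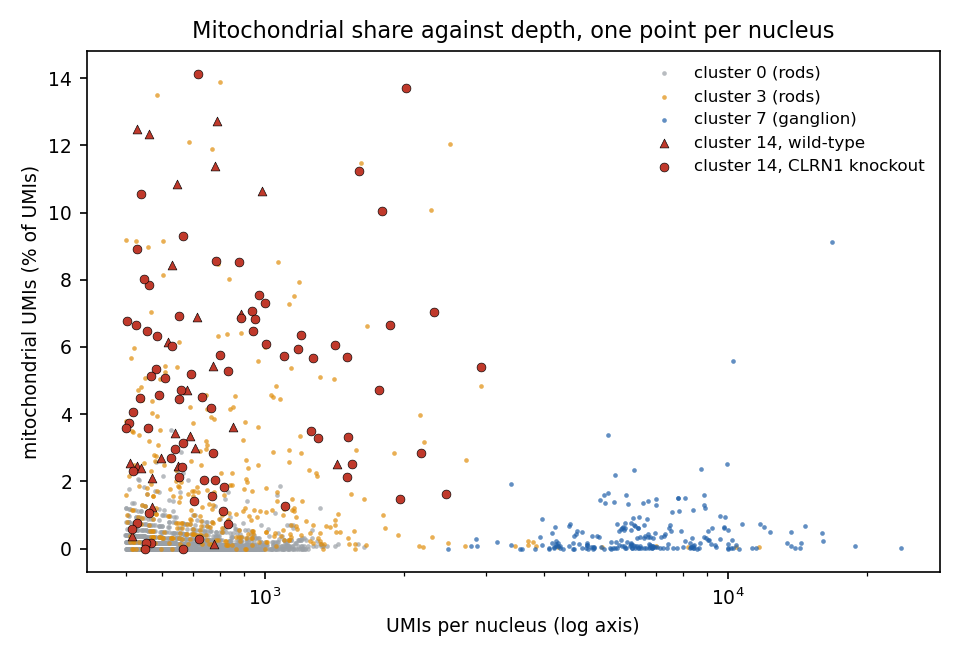
The horizontal axis gives UMIs per nucleus on a log scale and the vertical axis the deposited mitochondrial percentage, with 1 point per nucleus of clusters 14, 7, 0 and 3. Cluster 14 spreads from 0% to 14.1% at 500 to 2929 UMIs, while cluster 7 lies at higher depth with a median of 0.167%.

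Counted per nucleus instead of as a share, mitochondrial RNA was closer between the 2 ganglion-labelled clusters. A member of cluster 14 held a mean of 45.3 mitochondrial UMIs (median 35, quartiles 16 and 62) and a nucleus of cluster 7 a mean of 38.6 (median 11, quartiles 2 and 40). All other UMIs differed far more, with a median of 666 per nucleus in cluster 14 and 6442 in cluster 7. Cluster 3 had a median of 8 mitochondrial UMIs and cluster 0 a median of 1. A single knockout nucleus held 1536 of the 8381 mitochondrial UMIs of cluster 7. It raises the mean of that cluster and weighs on the pooled proportions of its rows, which were not recomputed without it. The 10 mitochondrial rows stood in similar proportions in both ganglion-labelled clusters: 3.27% of their UMIs would have to move between rows to turn one makeup into the other, against 4.04% for cluster 3, 5.61% for cluster 0 and 7.63% for cluster 8. The most abundant mitochondrial row was seen in 102 of 107 members and the least abundant in 11.

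The direction of the genotype difference in mitochondrial share depended on how it was summed. The median was 3.54% in the 26 wild-type and 4.71% in the 81 knockout members, with median intervals of 2.52 to 6.97 and 3.58 to 5.71 that overlapped. The pooled UMIs gave 5.51% (5.19 to 5.86) and 5.00% (4.85 to 5.16), the opposite order. Shares above 1% were 24 of 26 and 73 of 81. No difference between the genotypes can be read from these values.

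At equal depth the median member of cluster 14 had fewer genes than the median nucleus of clusters 7, 8, 0 and 3, with overlapping ranges. The expected number of distinct genes in 500 UMIs drawn from a nucleus had a median of 319 (interval of the median 314 to 324) and ran from 281 to 381. It was 322 in the wild-type and 318 in the knockout members. The medians were 359 in cluster 7, 376 in cluster 8, 386 in cluster 0 and 379.8 in cluster 3. At 1000 UMIs, which 24 members reached, the median was 548, against 643 in cluster 7. With the mitochondrial rows left out, 97 members reached 500 UMIs with a median of 327, against 359 in cluster 7. The lower gene number was therefore also present outside the mitochondrial rows.

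The UMIs of cluster 14 also sat in fewer rows. In cluster 14, 194 rows held 50% of all 94992 UMIs, against 400 rows for cluster 7, 471 for cluster 0, 567 for cluster 3 and 575 for cluster 8. The 10 highest rows held 20.9% of the UMIs, and 4 of these 10 were mitochondrial. Only 1 of them was also among the 10 highest rows of cluster 7, as was 1 for cluster 8, 1 for cluster 0 and 3 for cluster 3. None was in the ganglion marker list.

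A single row led the cluster, and the same row also led rod clusters 0 and 3. The row with the most UMIs in cluster 14 took 11.6% of its UMIs, 10.5% in the wild-type and 11.8% in the knockout members, and was present in 107 of 107 nuclei. The same row took 3.77% in cluster 3, 1.99% in cluster 0, 1.48% in cluster 8 and 0.888% in cluster 7. By UMIs it ranked 1 in clusters 3 and 0, 2 in cluster 8 and 4 in cluster 7. Its rank is thus shared, and its share of the UMIs is what differed. Counted per nucleus, its median was 84 UMIs in cluster 14 (range 39 to 353) and 47 in cluster 7 (range 7 to 577), so cluster 14 had more of it in absolute number despite its lower total. Of the 25 other clusters, none had a higher mean or median per nucleus. It is not one of the 10 mitochondrial rows.

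The row that dominated cluster 7 was scarce in cluster 14. Its share of UMIs was 12.6% in cluster 7, 5.30% in cluster 8, 1.82% in cluster 3 and 1.69% in cluster 0. Among the members it was 0.511%. That is 24.7-fold lower than in cluster 7 and 3.31-fold lower than in cluster 0. The members had a median of 4 UMIs of this row (range 0 to 22), whereas every nucleus of cluster 7 had at least 195. The mean of 4.53 per member was below that of each of the 25 other clusters, whose lowest was 11.96 in cluster 0. Cluster 0 had a lower total depth than cluster 14, with medians of 663 and 704 UMIs, yet its nuclei held more UMIs of this row.

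**Figure D3:**
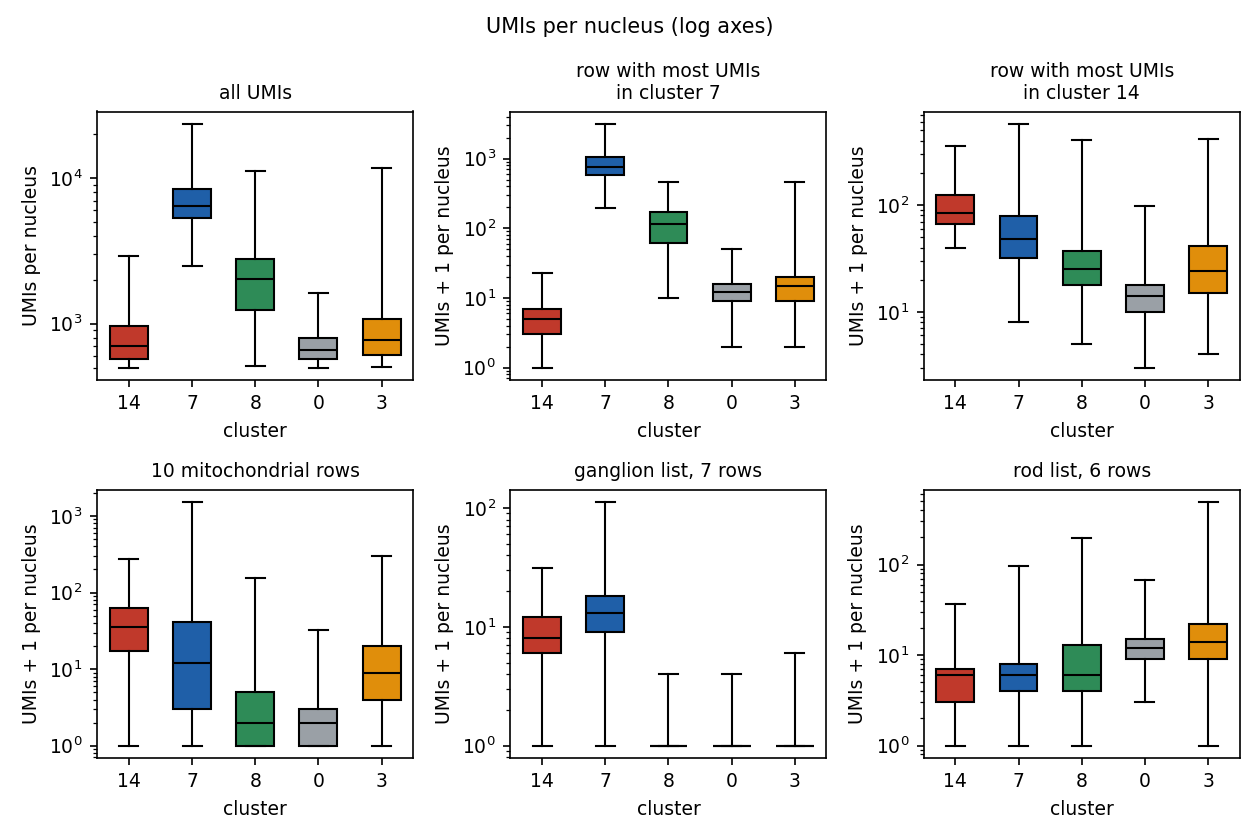
Boxes give the median and quartiles and whiskers the full range of UMIs per nucleus (log axes; 1 added except for all UMIs) in clusters 14, 7, 8, 0 and 3. Cluster 14 has a median of 35 mitochondrial and 7 ganglion-list UMIs per nucleus, against 11 and 12 in cluster 7, at a total near that of cluster 0, and the lowest count of the row that leads cluster 7.

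Across all rows, many levels differed between the ganglion-labelled clusters. Among 4820 rows with at least 50 UMIs in both together, 966 were more than 2-fold higher in CPM (counts per 1000000 UMIs of the cluster) in cluster 14, a share of 20.0%, and 1608 more than 2-fold lower, a share of 33.4%. The median log2 ratio over these rows was -0.43. Against cluster 3, 17.9% of 2019 rows were more than 2-fold higher and 53.2% lower. Against cluster 0 the shares were 16.4% and 48.6% of 3918 rows, and against cluster 8 they were 17.6% and 58.9% of 2367 rows. A fold counts as a description here, since 50 UMIs leave wide counting error at the depth of cluster 14. The rows with the most extreme ratios to cluster 7 are given by number. Row 11469 had 284 UMIs in cluster 14 and 105 in cluster 7, a 44.2-fold higher level (35.2 to 55.9), and row 6810 had 113 and 50, 36.9-fold higher (26.3 to 52.6). Row 2057 had 3 UMIs in cluster 14 and 6014 in cluster 7, a 123-fold lower level (41.9 to 595), and row 2 had 2 and 5405, an observed ratio of 165-fold lower (45.7 to 1365) that becomes 110-fold with 3 UMIs in place of 2.

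All 9 of the 10 mitochondrial rows that had enough UMIs were more than 2-fold higher in cluster 14 than in cluster 7, with a median log2 ratio of 3.29, against 20.0% of all rows. The clusters were drawn from these same counts, and whether the mitochondrial rows were used for it is not given. Nothing further is read from that count.

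The ganglion marker list was high in cluster 14 through a few of its rows. The authors' ganglion score averages the log level of 7 rows, called here by their rank in UMIs over all nuclei. In cluster 14 the summed list stood at 10032 CPM (exact Poisson interval 9406 to 10690), against 1881 in cluster 7, 219 in cluster 3, 154 in cluster 0 and 102 in cluster 8. Rods and Müller glia should lack ganglion transcripts, and their levels are given as the background of these libraries. Per nucleus the list held a mean of 8.91 UMIs in cluster 14 and 13.5 in cluster 7, against at most 0.243 in clusters 8, 0 and 3.

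The makeup of that list differed between the ganglion-labelled clusters. Its first row stood at 3779 CPM in cluster 14 and 548 in cluster 7, and was present in 96 of 107 members. The second row stood at 5516 and 321 CPM and was present in 99 of 107 members. They held 37.7% and 55.0% of the 953 list UMIs of cluster 14, against 29.1% and 17.0% of those of cluster 7. The third row, the most abundant of the list in cluster 7 at 842 CPM, stood at 400 in cluster 14, and the fourth was level at 137 in each. The fifth stood at 168 against 17.4. The sixth had 3 UMIs in cluster 14, and the seventh had 0, which allows up to 38.8 CPM, above the 8.37 measured in cluster 7. Of the 4 rows of the list with enough UMIs, 2 were more than 2-fold higher and 1 more than 2-fold lower in cluster 14 than in cluster 7, against 20.0% and 33.4% of all rows.

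Thinned to 500 UMIs, the first row was expected in 80.6% of cluster 14 nuclei and 22.4% of cluster 7 nuclei. The second was expected in 87.5% and 12.9%, and the third in 17.4% and 34.3%. The unthinned shares were 89.7% and 92.2% for the first row, 92.5% and 75.1% for the second and 27.1% and 97.2% for the third. In total 47.2% of the list's UMIs would have to move between rows to turn the makeup in cluster 14 into that in cluster 7. The makeup was nearer to that of the few list UMIs in the clusters that should lack them, with 15.8% to move for cluster 0 (164 UMIs), 19.6% for cluster 3 (81 UMIs) and 34.8% for cluster 8 (45 UMIs).

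**Figure D4:**
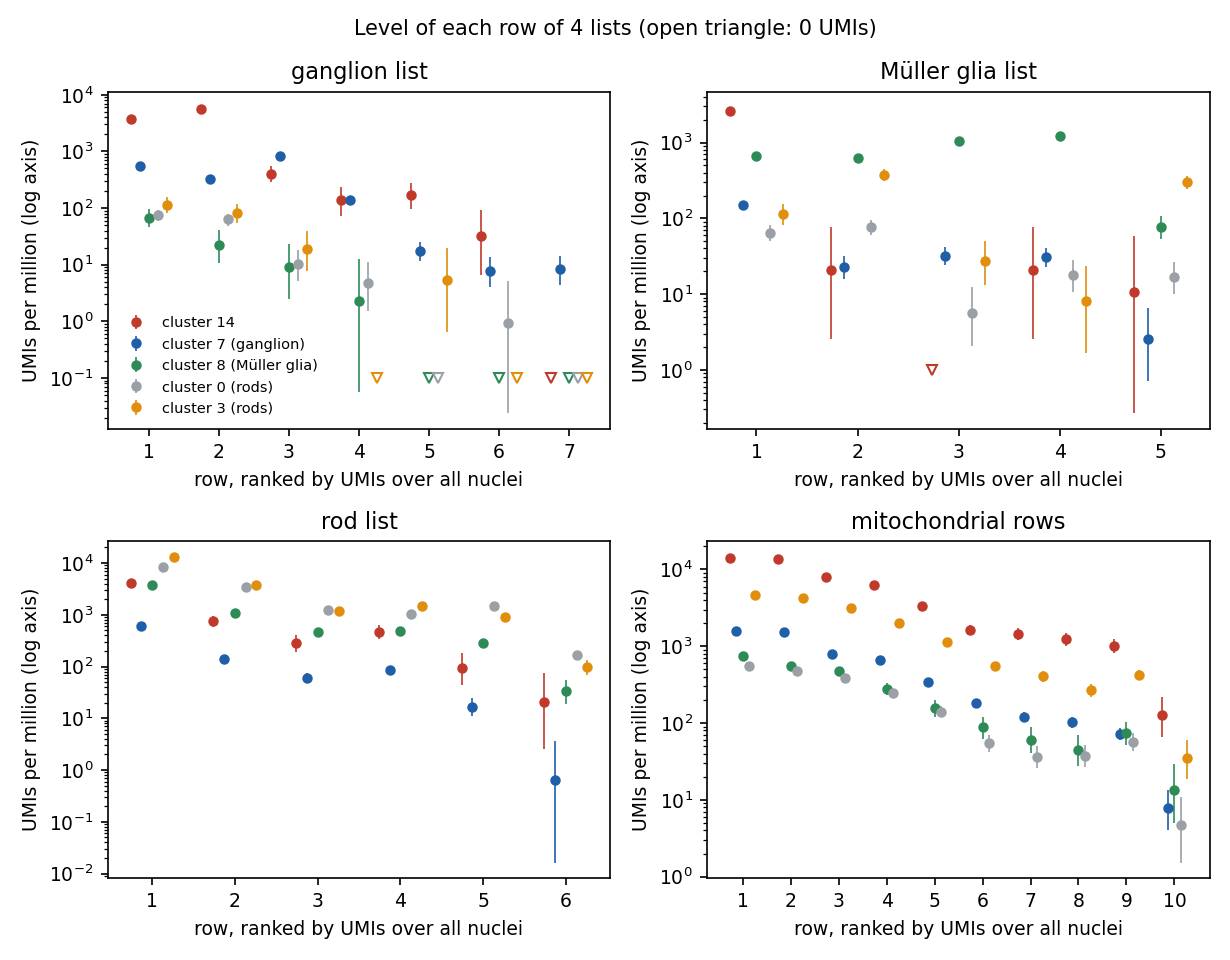
Each panel gives the level of each row of a list in CPM (log axis, exact Poisson 95% intervals) in 5 clusters, with rows ranked by UMIs over all nuclei and open triangles at 0 UMIs. In cluster 14 the first 2 ganglion rows and the first Müller glia row are high, the other Müller glia rows are at or near 0, and the 10 mitochondrial rows keep their order.

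The Müller glia score of cluster 14 rested on 1 row. Müller glia are the radial support cells of the retina. The list has 5 rows, and cluster 14 had 250 UMIs of it, 245 of them in the first row. That row stood at 2579 CPM in cluster 14, 658 in Müller glia cluster 8 and 149 in cluster 7, and was present in 80 of 107 members. The other 4 rows had 2, 0, 2 and 1 UMIs in cluster 14, although 3 of them stood between 619 and 1204 CPM in cluster 8. Of the 25 other clusters, only cluster 8 had a higher median Müller glia score than the 0.45 of cluster 14, but the pattern over the list's rows was not that of cluster 8.

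The rod list was present at a number of UMIs per nucleus like that of other non-rod clusters. Its 6 rows held a mean of 5.14 UMIs per member, against 6.49 in cluster 7, 14.8 in cluster 8, 11.1 in cluster 0 and 21.5 in cluster 3. By library the means were 5.81 in the wild-type and 4.93 in the knockout members, inside the ranges over the 18 other non-rod clusters of 4.85 to 15.3 and 3.66 to 33.2. Divided by the small totals of cluster 14, the same UMIs gave 8319 CPM in the wild-type members (7045 to 9756) and 5193 in the knockout members (4696 to 5728). The first lay above the range of the other non-rod clusters in that library, 983 to 7369, and the second inside it, 836 to 11595. The proportions of the 6 rows were closest to those in cluster 7, with 6.07% of UMIs to move, then cluster 3 with 9.34%, cluster 8 with 10.6% and cluster 0 with 20.4%. How much of the rod signal came from free RNA was not tested. Cone, bipolar, horizontal and amacrine lists were near 0, at means of 0.0935, 0.0280, 0.0561 and 0.159 UMIs per member, and the microglia rows, which were recovered less exactly, had 0 UMIs in all 107.

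Within single nuclei, some members of cluster 14 had both a high ganglion and a high rod score. A score is on a natural-log scale and was called high past the lower quartile of the matching cluster, 0.49 for ganglion (cluster 7) and 1.01 for rod (cluster 0). In cluster 14, 99 of 107 members were past the ganglion limit and 26 past the rod limit. Both held in 24 members, or 22.4% (14.9 to 31.5), 7 of 26 in the wild-type and 17 of 81 in the knockout library. Elsewhere both held in 11 of 6435 nuclei, or 0.171%, among them 5 of 352 in cluster 3, 2 of 1501 in cluster 0 and none of 217 in cluster 7. With both limits at the medians of those clusters the share was 10.3%, and with both at 0 it was 96.3%, so its size depends on the limit. Over the 107 members the 2 scores had a Spearman correlation of -0.12, so high values of one did not go with high values of the other. Nearly all members were past the ganglion limit, so the joint count largely follows the number past the rod limit. Few nuclei outside clusters 14 and 7 were past the ganglion limit at all, as given below.

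Scores compare nuclei of unequal depth on a log scale, in which a single rod UMI weighs more in a shallow nucleus. Among members of 500 to 1000 UMIs, 20 of 83 were past both limits, against 1 of 246 nuclei of cluster 3 and 1 of 1390 of cluster 0 in the same range. Ganglion and Müller glia scores were both past their limits in 16 members, 15 of them from the knockout library, and all 3 scores in 3 members. All 3 scores were above 0 in 78 of 107 members. The highest of the 9 scores was ganglion in 70 members, rod in 27, general photoreceptor in 6 and Müller glia in 4. In the wild-type library ganglion and rod each led in 11 of 26 members, and in the knockout library ganglion led in 59 and rod in 16 of 81. The wild-type members were also the shallower ones.

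**Figure D5:**
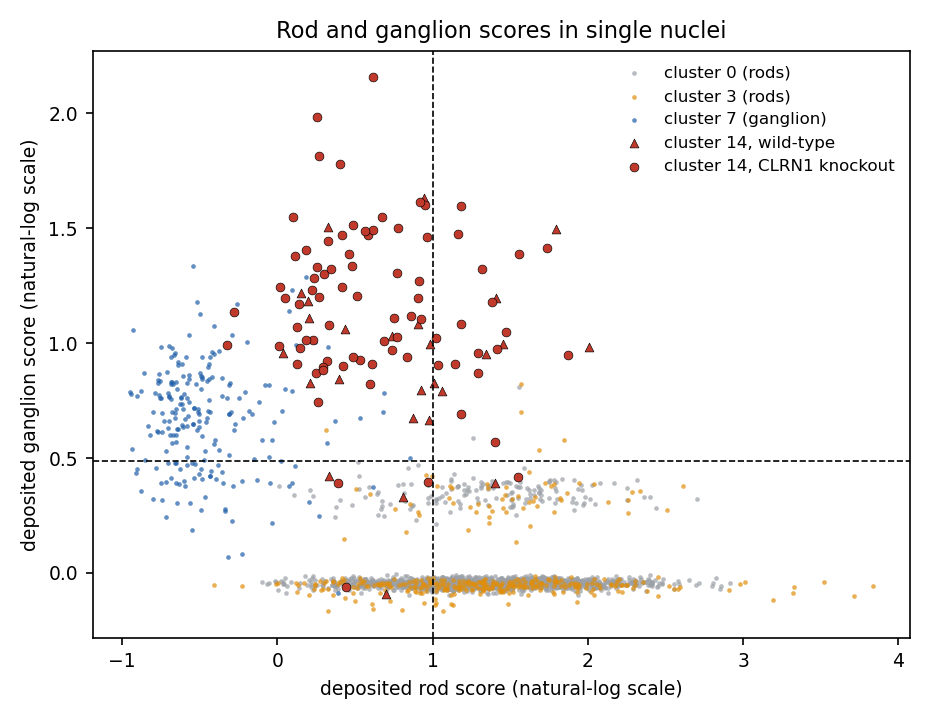
The deposited rod score (horizontal) is set against the deposited ganglion score (vertical), both on a natural-log scale, for nuclei of clusters 14, 7, 0 and 3, with dashed lines at the limits of 1.01 and 0.49. Past both lines lie 24 members of cluster 14, none of cluster 7, 2 nuclei of cluster 0 and 5 of cluster 3.

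Ganglion-list and mitochondrial UMIs were more numerous in deeper members, while rod-list UMIs were similar at all depths. Members under 600 UMIs had a median of 5 ganglion-list UMIs, those of at least 600 but under 1000 had 7, and those of 1000 or more had 16.5. Rod-list UMIs had medians of 4.5, 5 and 4.5 in the same classes, and the row that leads cluster 7 had 3, 4 and 3. Mitochondrial UMIs had medians of 19.5, 32 and 66.5. Over the 107 members the Spearman correlation with total UMIs was 0.83 for the top row of cluster 14, 0.66 for the ganglion list, 0.56 for mitochondrial UMIs, 0.15 for the top row of cluster 7 and 0.13 for the rod list. All 5 quantities are part of the total they are set against. Mitochondrial percentage and ganglion score were almost unrelated, at a correlation of -0.026. Deeper members had a median ganglion score of 1.28 at 1000 or more UMIs and 1.04 under 600, and rod scores of 0.44 and 0.75. From shallow to deep, the 3 classes held 9, 16 and 1 wild-type and 23, 35 and 23 knockout members. Depth and library are thus mixed in these class values, and their parts cannot be told apart.

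A few members did not reach the ganglion limit. Of the 8 members at or under the ganglion limit, the highest had a score of 0.42, and 4 were from each library. Outside clusters 14 and 7, 20 of 6218 nuclei were past that limit.

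The similarity of the summed counts to other clusters depended on the rows used. Across 1645 rows with at least 10 UMIs in cluster 14, the Spearman correlation of summed counts was 0.33 with cluster 7, 0.25 with cluster 3, 0.19 with cluster 8 and 0.15 with cluster 0. Rows are not independent replicates, and both clusters of each pair share their libraries. Amacrine clusters 11 and 5 ranked above cluster 7, at 0.34 and 0.33. The row filter used the counts of cluster 14 alone, and without it the values were higher: 0.65 with cluster 7, 0.55 with cluster 3, 0.53 with cluster 0 and 0.48 with cluster 8. Rod cluster 2, the cluster with the most UMIs, then came first, also at 0.65. Between the 2 libraries, the wild-type and knockout members of cluster 14 correlated at 0.86 over 251 rows. In the wild-type members alone cluster 3 came before cluster 7, at 0.28 and 0.23 over 251 rows. In the knockout members alone cluster 7 stayed before cluster 3, at 0.39 and 0.23 over 1333 rows. Library and set of rows changed together here, so their parts cannot be told apart. The wild-type members had 18152 UMIs in all and the knockout members 76840.

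Written as a sum of the profiles of clusters 7, 8, 0 and 3, cluster 14 was fitted by 73.2% of cluster 3 and 26.8% of cluster 7, with 0% of clusters 8 and 0. The sum was a poor one. It left 57.2% of the UMIs in other rows than those observed, and with all 25 other clusters as sources 56.9% stayed unmatched. Clusters 7, 8, 0 and 3, each thinned to the same 94992 UMIs and written from the 24 others without its own profile and without cluster 14, left 25.2%, 25.4%, 10.6% and 19.0%. The weights moved with the rows and libraries used: cluster 7 had 18.1% with the wild-type library alone and 45.2% with the knockout library alone. The weights are a way of writing the counts and do not show where the RNA came from.

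The closest single profile turned on a few rows. Leaving out the mitochondrial rows, 105 of 107 members were closest to cluster 3 by multinomial likelihood and 2 to cluster 7. With the profiles thinned to equal UMIs these were 106 and 1. All 217 nuclei of cluster 7 were closest to their own cluster, as were 1492 of 1501 in cluster 0, although those profiles include the nuclei tested. The profile of cluster 3 was less specific: of its own 352 nuclei, 162 were closest to it and 177 to cluster 0. When the 10 highest rows of cluster 14 and the highest row of cluster 7 were also left out, 87 of 107 members were closest to cluster 7 and 20 to cluster 3. By library, 19 of 26 wild-type and 68 of 81 knockout members were then closest to cluster 7. This second case was not repeated with profiles thinned to equal UMIs, although the profile of cluster 7 holds more UMIs than that of cluster 3. No member was closest to Müller glia cluster 8 in either case.

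Within cluster 14, few rows differed between the genotypes past 2-fold. Of 227 rows with at least 50 UMIs, 13 were more than 2-fold higher in the knockout members, a share of 5.73%, and 7 more than 2-fold lower, a share of 3.08%. In cluster 7 the shares were 1.59% and 0.871% of 4595 rows, with far more UMIs behind each row. In the marker and mitochondrial lists, 9 mitochondrial, 2 ganglion, 2 rod and 1 Müller glia rows had enough UMIs, and none of these passed 2-fold in cluster 14. They are too few to be set against the shares over all rows. The ganglion list stood at 8043 CPM in the wild-type (6791 to 9459) and 10502 in the knockout members (9790 to 11253), with rod-list levels in the opposite order as given above.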

How the data were processed

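Nuclei of 2 pooled libraries were analysed. The deposited matrix holds raw UMI counts per the values, with 15806 numbered rows and 6542 columns, and the authors' table of nuclei gives cluster, cell type, mitochondrial percent, embedding coordinates and 9 module scores. Among the tools in the submitters' processing notes are Seurat 4.3.0, DESeq2 1.38.0 and Cell Ranger 7.0, and the build is OryCun2.0; roles are not listed. The filters on nuclei and the handling of doublets and free RNA were not given in the sources used here, and no doublet caller was run. Columns were tied to nuclei by position: the total and the gene number equalled those of the table in 6542 of 6542 columns, and 105 of 107 members had a pair found in no other nucleus.

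The mitochondrial rows were found as the 10 rows that sum to each nucleus's mitochondrial UMIs in all 6542 nuclei. The rows of 8 marker lists were found by rebuilding the authors' score in every nucleus within 1e-09 from ln(1 + 10000 × count / total). The microglia score was rebuilt less closely. CPM values use summed counts, a ratio against fewer than 3 UMIs was ranked and counted with 3, and the named rows are the 2 highest and 2 lowest by ratio to cluster 7 among rows with at least 50 UMIs. Genes at matched depth are the exact expectation for draws without replacement. No test was run, with 1 library per genotype. The members, lists and comparisons were chosen with earlier results of these data known, and the recovery of list rows, the closest profile, the fits without the 10 highest rows or without a cluster's own profile, and the value without 1 nucleus of cluster 7 were chosen after seeing the data. The recovery and fitting steps were tested on simulated data. Python 3.11.15, numpy 2.4.6, pandas 2.3.3, SciPy 1.17.1 and matplotlib 3.10.9 were used.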

Additional observations from a re-analysis of the deposited data

Results flagged for a closer look

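The knockout to wild-type ratio of the share of nuclei was log2 1.83 for cluster 14 and -0.17 for cluster 7, the other ganglion-labelled cluster. The signs differ, but the value of cluster 7 is small and is given without an interval, so no change of cluster 7 is read from it. The same ratio of the mitochondrial level in pooled UMIs was log2 -0.14 in cluster 14 and 0.73 in cluster 7, which also differ in sign. By medians the ratio in cluster 14 was 0.41, the same sign as cluster 7, so no direction is read from it. A single knockout nucleus of cluster 7 held 1536 mitochondrial UMIs, and without it the ratio in cluster 7 was 0.27. With 1 library per genotype neither difference was tested.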

How the results depend on the processing

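Of 29 alternative settings, 12 left the value within its counting error or tolerance, 14 moved it and 3 turned its direction. The log2 knockout to wild-type ratio of the share of cluster 14 was 1.83 (1.17 to 2.52). Among nuclei with 1000 or more UMIs it was 4.50 (1.88 to 9.87), a value that rests on 1 wild-type member. Genes at matched depth relative to cluster 7 were 0.888 at 500 UMIs, 0.851 at 1000 and 0.912 without mitochondrial rows. The log2 ratio of the mitochondrial share to cluster 7 was 4.78 by medians and 3.24 by pooled UMIs. The share of nuclei above 1% mitochondrial UMIs, an unlike quantity, gave a log2 ratio of 2.81. The knockout to wild-type ratio of the mitochondrial share was log2 0.41 by medians and -0.14 by pooled UMIs. For the share of nuclei above 1% it was -0.035, from 73 of 81 knockout and 24 of 26 wild-type members. That small value is counted among the 3 that turned direction. Ganglion and rod scores met in 22.4% of members, in 10.3% at median limits and in 96.3% at limits of 0. Cluster 3 gave 93.3% of the 30 nearest nuclei and 80.0% of the 10 nearest. The correlation with cluster 7 minus that with cluster 3 was 0.081, -0.050 in the wild-type library alone and 0.16 in the knockout library alone. The weight of cluster 7 in the fitted sum was 26.8%, and 13.5% with every cluster as a source, 18.1% with the wild-type and 45.2% with the knockout library, and 41.1% without mitochondrial and the 10 highest rows. The share of members closest to cluster 3 was 98.1%, and 18.7% without those rows and the highest row of cluster 7. The cause of these shifts was not tested. The mitochondrial share against cluster 7 at 500 to 1000 UMIs could not be computed, since cluster 7 has no such nucleus. No paired analysis was possible because each genotype has 1 pooled library.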

Other observations

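The ratio of cluster 14 to cluster 7 and the ratio of cluster 3 to cluster 0 rest on separate nuclei, since the 4 clusters share none. Cluster 3 is the rod cluster with the highest mitochondrial share, so this pair was picked for a trait that cluster 14 also has. Across 3580 rows the 2 log ratios had a Spearman correlation of 0.36, and of 0.36 over the 3571 rows left without the mitochondrial ones. The 732 rows more than 2-fold higher in cluster 14 than in cluster 7 had a median log2 ratio of 0.39 between clusters 3 and 0, and the 1188 rows more than 2-fold lower had a median of -0.26, against -0.15 over all rows. The row with the most UMIs in cluster 14 was 1.89-fold higher in cluster 3 than in cluster 0. All 4 clusters share the libraries, and rows are not independent.

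Of the 2 nuclei of cluster 3 that lay on the island of cluster 14, the first had 632 UMIs, 1.58% mitochondrial UMIs, no ganglion-list UMI and 72 UMIs of the row that leads cluster 14. The second had 1166 UMIs, 0.686% mitochondrial UMIs, 5 ganglion-list and 24 rod-list UMIs, and a ganglion score of 0.82.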
